A study of Mus musculus with 36 samples.

Results

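Open chromatin was followed around Fos, Jun, Junb, Fosl2 and Atf3, genes of the AP-1 and ATF transcription factors. Heart nuclei were taken after a sham operation or from beside a myocardial infarct. On days 7 and 14 they were sorted by a cardiomyocyte reporter, and on day 4 the labels leave the nuclei unclear. The members were all listed regions that overlapped 1 of 5 windows of mm9: chromosome 12 from 86760000 to 86870000 for Fos, chromosome 4 from 94600000 to 94830000 for Jun, chromosome 8 from 87470000 to 87530000 for Junb, chromosome 5 from 32400000 to 32510000 for Fosl2, and chromosome 1 from 192950000 to 193090000 for Atf3. The rule used positions only and no tag value. It found 67 regions of the 122759 listed over 3 days: 15 in the Fos window, 14 for Jun, 17 for Junb, 14 for Fosl2 and 7 for Atf3. They were 18 of 46827 on day 4, 22 of 34952 on day 7 and 27 of 40980 on day 14. A region was placed in a window by position alone. It was not assigned to a promoter, exon, intron or enhancer, so a region of a window need not act on the gene the window is named for.

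ATAC-seq, in which a transposase cuts accessible DNA, was done on left ventricular nuclei of FVB/N mice after a sham operation or after infarction, where the border zone beside the infarct was taken. Each of days 4, 7 and 14 after surgery had a sham library and a border zone library, 6 in all. On day 4 both groups came from Cdh5-Cre; Sun1-sfGFP mice, in which Cre is driven by an endothelial promoter. Their labels name both a GFP sort and a pulldown with PCM1, a protein around cardiomyocyte nuclei, and no tamoxifen. They do not say how the sort and the pulldown were combined, so which nuclei entered the day 4 libraries is not known here. On days 7 and 14 both groups came from Myh6-MerCreMer;nTnG mice, in which tamoxifen-activated Cre under a cardiomyocyte promoter switches a nuclear reporter. These mice received tamoxifen at 20 mg/kg from a week before surgery, and 50000 nuclei per sample were sorted, so cardiomyocytes that did not recombine are left out by the design. The labels do not give the animals behind a library, ages or sexes. Genotype, isolation and aligner differ between the first day and the other 2 and cannot be told apart from time. Cell type markers were not analysed here, because the lists name no genes and an mm9 annotation was not used here.

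AP-1 is a dimer of a Jun protein with a Fos or ATF protein that binds short palindromic DNA sites through a basic leucine zipper. Fos, Jun and Junb are immediate early genes, switched on quickly by growth signals, stretch and stress, and the Fos and Jun genes are themselves targets of CREB, ATF and AP-1 proteins. Fosl2 encodes Fra-2, a Fos relative without the strong activation domain of Fos, and Atf3 is a stress-induced gene whose product often acts as a repressor. In the heart, these genes are known for their induction by pressure, injury and ischaemia.

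The members' own control sites are shown first, since Fos and Jun are textbook cases of genes read through sites of this kind. RefSeq promoters of GRCm38.p6, from 250 bases before to 50 bases after the start, were found for 5 of the 5 genes. They were searched on both strands for the AP-1 site TGANTCA, the CRE-like site TGACNTCA and the CRE core TGACGT. These stretches hold the matches, 5′ to 3′ along the gene, with the motif in capitals.
Fos: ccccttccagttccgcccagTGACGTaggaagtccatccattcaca
Jun: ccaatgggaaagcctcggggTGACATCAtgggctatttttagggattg
Atf3: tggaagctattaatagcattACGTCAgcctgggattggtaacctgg
The first letter of the motif lies 66 bases before the RefSeq start in Fos, 45 in Jun and 8 in Atf3, where the CRE core is on the opposite strand. TGANTCA was in 7.81% of all 32851 promoters, TGACNTCA in 8.83% and TGACGT in 7.51%. A CRE core that has CA after it is also a CRE-like site, so the last pair of motifs can overlap. No match was found in the 300-base windows of Junb and Fosl2, and no TGANTCA in any of the 5. A match is a description of letters. The stretches are of another build than the lists, so no listed region was placed on them.

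For each region the lists give sham tags, which are counts of sequenced tags, and border zone tags, which were put on the sham scale by the authors for all lists but that of uncalled day 4 regions. The lists call a region border zone-higher or sham-higher. The smallest fold of such a region was 1.75, and on days 4, 7 and 14 the larger value started at 35, 50 and 150 tags. Uncalled regions started at the same tag numbers, and a region with both values under them is listed nowhere. A region missing on a day thus has no measured value. Listed regions held 5907384, 3858892 and 13936013 sham tags on days 4, 7 and 14, so most regions listed on several days had their narrowest interval on day 14. Ratios below are listed border zone tags over sham tags. Each has an exact 95% interval (Clopper-Pearson, on whole tags) that covers counting error only, because a condition had 1 library on a day. No difference within a day or between days was tested.

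Of the 67 member regions, 16 were border zone-higher, 3 were sham-higher and 48 were neither. Day 4 held 2 border zone-higher and 1 sham-higher of 18 member regions, which is 11.1% and 5.56%, beside 12.2% and 7.37% of all regions listed that day. Day 7 held 6 and 2 of 22, which is 27.3% and 9.09%, beside 17.5% and 22.0% of all. Day 14 held 8 and 0 of 27, which is 29.6% and 0, beside 13.4% and 6.75%. The share of members called border zone-higher was thus near that of all regions on day 4 and above it on days 7 and 14, and 14 of the 16 came from those later days. Of all 17342 border zone-higher regions, 5721, 6120 and 5501 came from days 4, 7 and 14. Some member loci were called on both later days and count on each. With 18 to 27 regions a day, a difference of 1 region moves these shares by several percentage points.

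**Figure D1:**
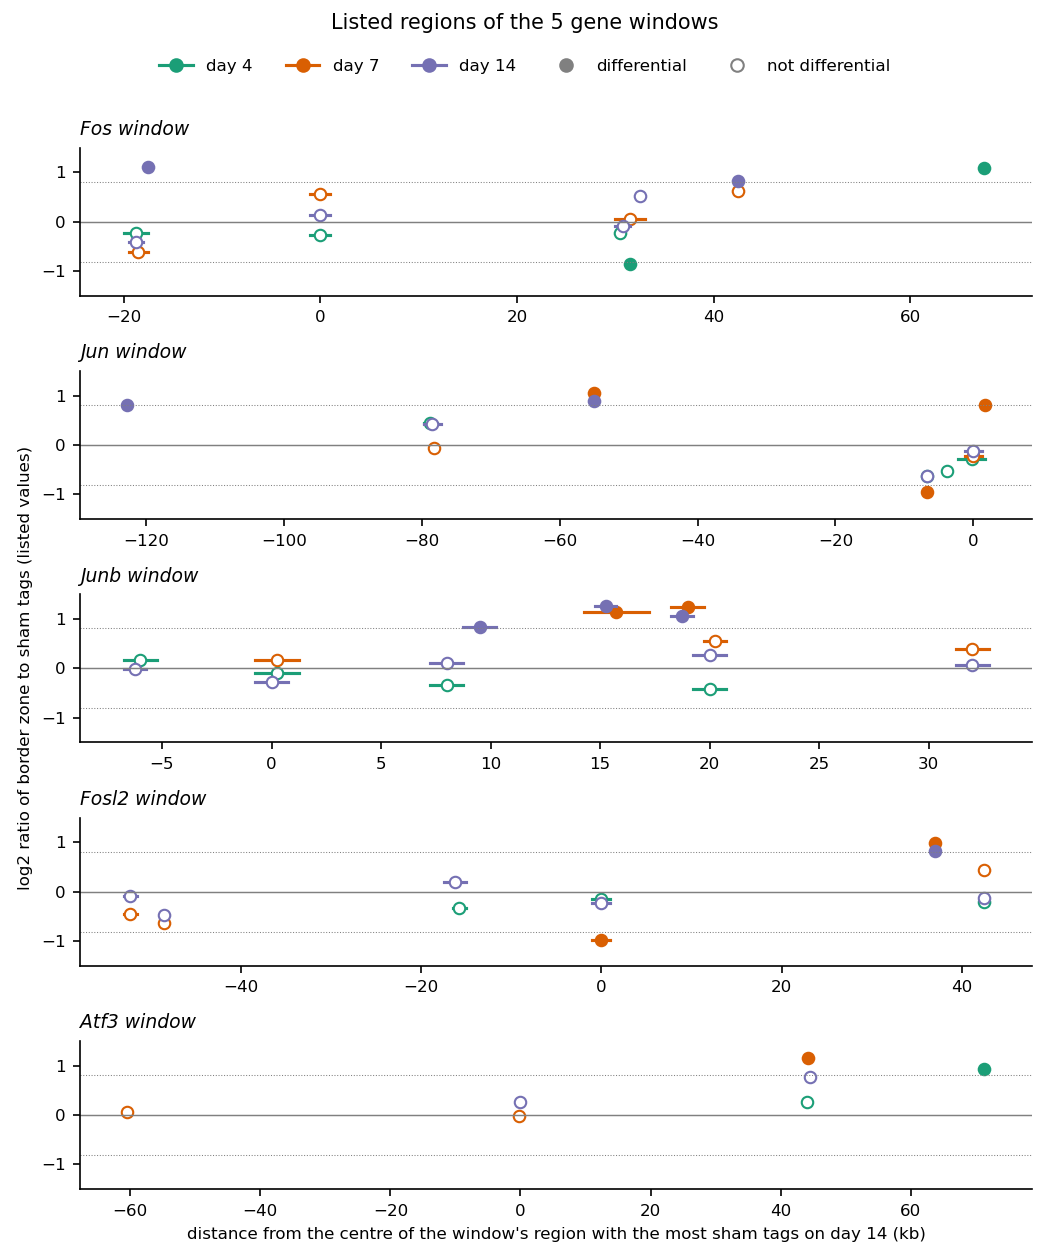
Each point is a member region, plotted by its distance from the window's region with the most sham tags on day 14 (kb) and by the log2 ratio of listed border zone to sham tags, coloured by day and filled where the lists call it; the dotted lines are a fold of 1.75. The 16 border zone-higher regions lie in all 5 windows, and the 3 sham-higher regions lie in the Fos, Jun and Fosl2 windows.

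Regions that overlapped between days were joined into 28 loci. Of these, 11 were listed on all 3 days, 8 on days 7 and 14 but not on day 4, 3 on days 4 and 14, and 3, 1 and 2 only on day 4, 7 and 14. Of all 60847 loci, 32.4% were listed on all 3 days and 10.4% on days 7 and 14 alone, beside 39.3% and 28.6% of the member loci. Loci on day 4 alone were 29.3% of all and 10.7% of the members. Day 4 nuclei were isolated differently, and the part of the isolation in this was not tested.

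Junb, whose product forms AP-1 dimers that often restrain Jun, held 5 border zone-higher regions and no sham-higher region. The locus from 87504251 to 87507250 on chromosome 8 had 124 sham and 275 border zone tags on day 7. Its day 14 region, from 87504751 to 87505750, had 84 and 200.2 tags. The ratios were 2.22 (1.76 to 2.79) and 2.38 (1.81 to 3.16), and border zone tags were the higher on both days. It was not listed on day 4. About 1 kb further, the region from 87508251 to 87509750 had 75 sham and 178 border zone tags on day 7, a ratio of 2.37 (1.77 to 3.19). From 87508251 to 87509250 there were 75 and 157 tags on day 14, a ratio of 2.09 (1.57 to 2.82). Both abut regions that the lists do not call different, but those leaned the same way on the later days. The region from 87509751 to 87510750 had 185 and 271 tags on day 7, a ratio of 1.46 (1.19 to 1.80), and that from 87509251 to 87510750 had 464 and 562 tags on day 14, a ratio of 1.21 (1.06 to 1.39). On day 4 the latter stretch had 189 sham and 142 border zone tags, a ratio of 0.751 (0.600 to 0.939), so here sham tags were the higher.

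The last border zone-higher region near Junb was listed on day 14 only. It ran from 87498751 to 87500250 with 212 sham and 378 border zone tags, a ratio of 1.78 (1.49 to 2.15). Directly before it, the region from 87497251 to 87498750 had 511 and 550 tags that day, a ratio of 1.08 (0.942 to 1.23), and 247 and 196 tags on day 4, a ratio of 0.794 (0.655 to 0.961). The region of the Junb window with the most sham tags, from 87489251, was not called on any day. It had 356 sham tags against 334 on day 4, 275 against 308 on day 7 and 1025 against 849 on day 14, when its ratio was 0.828 (0.748 to 0.916). The strongest site of the Junb window thus lay under 1 on day 14, while a border zone-higher call by itself places a region over 1. The called regions from 87504751 and 87508251 had 84 and 75 sham tags that day, under the tag minimum of the day. They were listed only through the border zone, unlike that from 87498751 with 212 sham tags. The contrast of the strongest site with the called sites is thus no separate observation.

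Jun, which encodes the AP-1 subunit that can pair with itself, held 4 border zone-higher regions and 1 sham-higher region. The locus from 94771751 to 94773250 on chromosome 4 was border zone-higher on both later days and unlisted on day 4. It had 124 sham and 257 border zone tags on day 7, a ratio of 2.07 (1.65 to 2.62), and 277 and 513 tags on day 14, a ratio of 1.85 (1.58 to 2.17). Both libraries passed the tag minimum of the day here, so that it did not owe its listing to the border zone alone. The locus from 94820251 to 94821250 went the other way on every day. It had 179 sham tags against 115 border zone tags on day 4, 167 against 86.2 on day 7, and 573 against 370 on day 14. Sham tags were 1.56-fold (1.23 to 1.99), 1.94-fold (1.44 to 2.63) and 1.55-fold (1.34 to 1.80) higher, and only day 7 passed the fold of the lists.

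The widest site near Jun was open in both conditions. From 94825251 to 94829250 it had 844 sham tags against 691 in the border zone on day 4, and from 94826251 to 94828750 it had 705 against 601 on day 7 and 1705 against 1560 on day 14. Its ratios were 0.819 (0.739 to 0.906), 0.852 (0.755 to 0.961) and 0.915 (0.848 to 0.987), so sham tags were slightly the higher each time. A flank of it, from 94828751 to 94829750, was border zone-higher on day 7 with 33 and 57.9 tags, a ratio of 1.75 (1.09 to 2.85). On day 14 the region from 94704251 to 94705250, the farthest from it, was border zone-higher with 97 and 170.03 tags, a ratio of 1.75 (1.33 to 2.31). The locus from 94747751 to 94750250 was not called. Its tags were 181 in sham against 247 in the border zone on day 4, 65 against 62.0 on day 7 and 586 against 786 on day 14, with border zone tags higher on days 4 and 14 by 1.36-fold (1.12 to 1.66) and 1.34-fold (1.19 to 1.51).

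Fos, the immediate early partner of Jun, held 3 border zone-higher regions and 1 sham-higher region. The site with the most tags, from 86795251 to 86797250 on chromosome 12, had 802 sham tags against 663 border zone tags on day 4, 484 against 715 on day 7, and 1671 against 1843 on day 14. Its ratio was 0.827 (0.745 to 0.917) on day 4, 1.48 (1.30 to 1.68) on day 7 and 1.10 (1.03 to 1.19) on day 14. Sham was the higher on day 4 and the border zone on both later days, and no list called it. The site from 86776251 to 86778750 had 565 and 480 tags on day 4. From 86776751 it had 201 against 132 tags on day 7 and 945 against 712 on day 14, so sham tags were higher on each day. Its ratios were 0.850 (0.751 to 0.961), 0.657 (0.511 to 0.840) and 0.753 (0.675 to 0.839). On day 14 the stretch directly after it, from 86778251 to 86779250, was border zone-higher with 78 and 169 tags, a ratio of 2.16 (1.61 to 2.91). The core of this site and its flank lay on opposite sides of 1 in the same libraries. The 78 sham tags of the flank were under the tag minimum of that day, so it was listed only through the border zone. The listing thus fixed the side of the flank, and its contrast with the core is no separate observation.

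A called flank also lay beside the Fos site from 86826251, here with both on the side of sham. The core had 447 sham tags against 380 in the border zone on day 4, and the flank from 86827251 to 86828250 was sham-higher with 49 and 26.9 tags, 1.82-fold (1.11 to 3.05). On day 7 a region over the whole locus had 468 sham against 484 border zone tags, a ratio of 1.03 (0.898 to 1.19). On day 14 the core had 971 against 917 tags, a ratio of 0.945 (0.855 to 1.04), while the uncalled flank from 86828251 to 86829250 had 129 against 184, a ratio of 1.42 (1.11 to 1.83). The flank values leaned to sham on day 4 and to the border zone on day 14, over stretches that join end to end and do not overlap. The lower values, 26.9 and 129, were under the minimum of 35 and 150. Each stretch was thus listed through its higher library alone, and the listing fixed both directions. The locus from 86838251 to 86839250 was unlisted on day 4 and had few tags on day 7, with 35 and 53.9, a ratio of 1.54 (0.953 to 2.50). On day 14 it was border zone-higher with 150 and 263 tags, a ratio of 1.75 (1.41 to 2.19), just over the fold of the lists. The third border zone-higher region, from 86863251 to 86864250, was listed on day 4 only with 22 and 46.6 tags, a ratio of 2.12 (1.24 to 3.70). Jdp2 and Batf, genes of other AP-1 family proteins, are the next coding genes on 1 side of Fos in RefSeq, and Tmed10 and Nek9 on the other.

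Fosl2 held 2 border zone-higher regions and 1 sham-higher region, and 10 of its 14 regions had a ratio under 1. The median ratio of all listed regions was itself under 1 on days 4 and 7, at 0.9375 and 0.906, and 1.019 on day 14. The locus from 32456751 to 32458750 on chromosome 5, its strongest, had 296 sham tags against 268 border zone tags on day 4, 265 against 135 on day 7, and 811 against 694 on day 14. On day 7, when the list called it sham-higher, sham tags were 1.97-fold (1.56 to 2.50) higher. The ratio was 0.905 (0.765 to 1.07) on day 4 and 0.856 (0.764 to 0.957) on day 14, so the lead of sham was smaller then. The locus from 32494251 to 32495250 moved the other way, with 36 against 71.4 tags on day 7 and 105 against 185 on day 14. It was border zone-higher on both days, at ratios of 1.98 (1.27 to 3.12) and 1.77 (1.37 to 2.28), and was not listed on day 4. The region from 32408751 to 32409750 had 54 against 35.0 tags on day 7 and 260.0 against 186 on day 14, when its ratio was 0.717 (0.579 to 0.886). The region from 32440251 to 32442750 on day 14 had 525 and 604 tags, a ratio of 1.15 (1.01 to 1.31). The other Fosl2 regions were not called, with ratios between 0.731 and 1.35.

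Atf3 had the fewest tags of the 5 windows, and all but 1 of its 7 regions had a ratio over 1. The locus from 193053751 to 193055250 on chromosome 1 was the Atf3 site listed on all 3 days. It had 45 sham tags against 54 border zone tags on day 4, 48 against 107 on day 7, and 102 against 174 on day 14. The border zone was higher each time, with ratios of 1.20 (0.793 to 1.82), 2.22 (1.54 to 3.23) and 1.71 (1.31 to 2.24). The list called it on day 7, day 14 fell just short of the fold, and the interval of day 4 held 1. The region from 193080751 to 193082250 was listed on day 4 only and was border zone-higher with 54 and 102 tags, a ratio of 1.89 (1.34 to 2.70). The other regions were not called. The region from 193009251 to 193010750 had 102 against 101 tags on day 7 and 153 against 184 on day 14, and that from 192949251, whose midpoint lies outside the window, had 52 and 53.9 tags on day 7. Batf3, the gene of another AP-1 family protein, is near Atf3 in RefSeq, as are Nsl1 and Fam71a. The nearest coding gene on that side is 5.5 kb from Atf3.

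**Figure D2:**
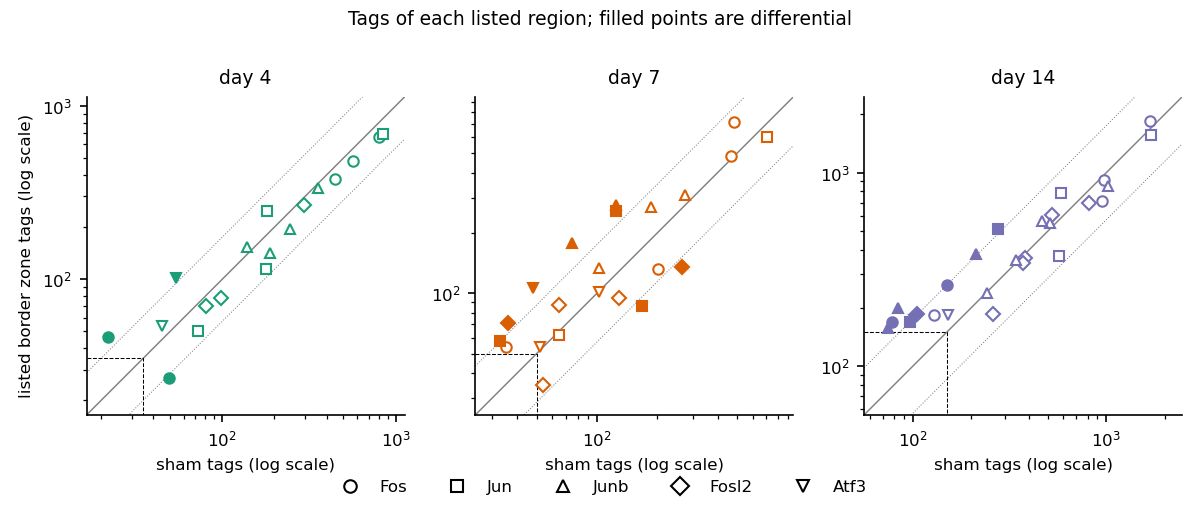
Each point is a member region on 1 day, with sham tags on the horizontal and listed border zone tags on the vertical log axis; the solid line is equality, the dotted lines are a fold of 1.75 and the dashed lines are the smallest larger value of a called region that day. Filled points are called regions, and the 48 uncalled regions lie between the dotted lines, with ratios from 0.642 to 1.71.

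The border zone-higher regions were among the less accessible ones in sham. Of the 16 border zone-higher member regions, 14 had sham tags per kb in the lowest 25% of the regions listed that day, against 4 of the 48 uncalled ones. Of all border zone-higher regions in the lists, 84.7% did so too, and the fold behind the call itself ties the call to a low sham value. The exception among the members was the Jun locus from 94771751 to 94773250 on both days. Of the 19 called member regions, 9 had both values at or above the tag minimum of the day, while the other 10 could be listed only through the higher library. Both values were at or above the minimum in 7 of the 16 border zone-higher and 2 of the 3 sham-higher members, beside 26.6% and 30.6% of all such regions. At the other end, 17 member regions lay in the highest 10% of sham tags per kb, and 1 of them was called, the Jun locus from 94820251 to 94821250 on day 7. The 17 were 0 of the 16 border zone-higher, 1 of the 3 sham-higher and 16 of the 48 uncalled members, beside 0.415%, 7.23% and 12.3% of all such regions. Of the 16 border zone-higher member regions, 5 directly abutted an uncalled region of the same day, as did 1 of the 3 sham-higher ones, beside 29.9% and 30.4% of all such regions.

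Tags were also summed over each window, where a ratio always lies between the lowest and the highest ratio of its regions. Junb had 930 sham tags against 826 border zone tags on day 4, 761 against 1165 on day 7, and 2954 against 3290 on day 14. Its ratios were 0.888 (0.808 to 0.977), 1.53 (1.39 to 1.69) and 1.11 (1.06 to 1.18), the highest of the 5 genes on day 7. On the same days Fos had 1885 sham and 1596 border zone tags, 1188 and 1385, and 3944 and 4087, with ratios of 0.847 (0.792 to 0.906), 1.17 (1.07 to 1.27) and 1.04 (0.988 to 1.09). For both, sham was the higher on day 4 and the border zone on day 7. Border zone values of uncalled day 4 regions were counts not scaled to sham. With a day 4 factor of 1.08, from summed listed tags, the day 4 ratios of Fos and Junb were 0.913 and 0.959. Without its strongest region, the ratio of Fos on day 7 was 0.951. Jun had 1276 and 1103, 1094 and 1064, and 3238 and 3399 tags, with ratios of 0.864 (0.797 to 0.938), 0.973 (0.887 to 1.07) and 1.05 (0.996 to 1.11). The Jun sum joins regions that moved in opposite directions.

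Fosl2 had 475 and 416, 549 and 423, and 2455 and 2372 tags, with ratios of 0.876 (0.766 to 1.001), 0.770 (0.669 to 0.887) and 0.966 (0.909 to 1.03). Without the locus from 32456751 the ratio was 1.01 on day 7 and 1.02 on day 14, and a single scaling factor gave 1.008 on day 14, so its side of 1 on these days depended on that locus or on the scaling. Atf3 had 99 and 156, 202 and 261, and 255 and 358 tags, with ratios of 1.58 (1.22 to 2.06), 1.29 (1.06 to 1.58) and 1.40 (1.18 to 1.67). It was the gene whose sum was higher in the border zone on all 3 days with intervals that left out 1. All listed regions together had ratios of 0.931, 0.954 and 1.01 on days 4, 7 and 14, and on day 4 the summed ratios of Fos, Jun, Junb and Fosl2 were each under 0.931. The regions covered between 2 and 10.5 kb of a window and were called separately each day, so a sum also moves with what was listed.

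**Figure D3:**
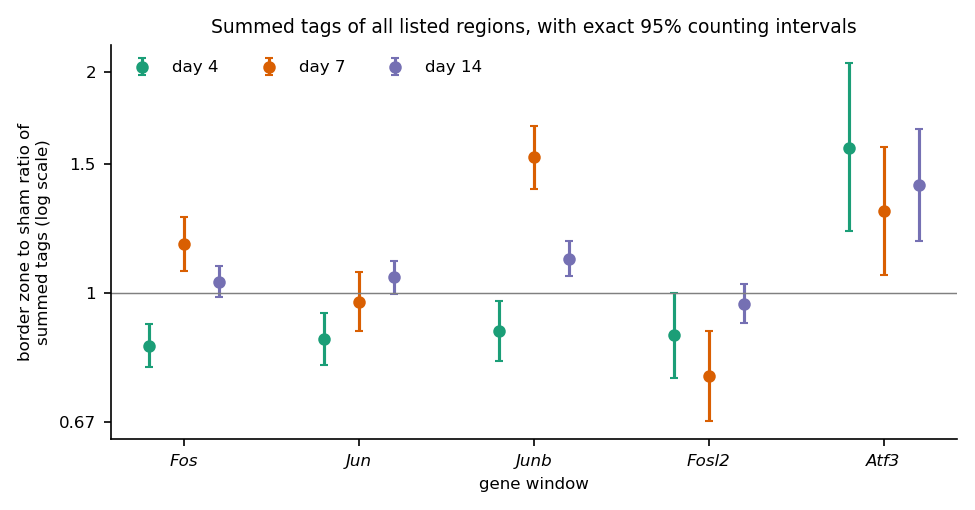
Points are the ratios of summed listed border zone to sham tags for each gene's window on days 4, 7 and 14, on a log axis, with exact 95% counting intervals as bars. The intervals of Atf3 lie above 1 on all 3 days, that of Fosl2 on day 14 spans 1, and Junb stands highest on day 7 at 1.53. On days 7 and 14 the Atf3 sum includes a locus listed only through the border zone.

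Whole tags of the 19733 loci listed on every day were tested for a difference of border zone and sham by the quasi-likelihood test of edgeR, with a block for day and Benjamini-Hochberg adjustment. Of all loci, 7.67% passed as higher in the border zone and 2.32% as higher in sham, against 5.18% and 0.583% in DESeq2 with its own size factors. Of the 11 member loci tested, 1 passed as higher in the border zone and 0 as higher in sham. Unadjusted p was under 0.05 for 3 and 1, beside 5327 of all 19733 loci with the 2 directions together. DESeq2 also called 1 and 0 of the member loci. The 1 locus was that of Atf3 from 193053751 to 193055250, with a log2 fold change of 0.98 (SE 0.25, adjusted p = 0.013), higher on 3 of 3 days. On days 7 and 14 its sham tags, 48 and 102, were under the tag minimum of 50 and 150, so on those days it was listed, and could be tested, only through the border zone library. The listing thus fixed its direction on those days, and the call is no separate support for it. Its adjusted p ranged from 4.77e-05 to 0.997 over the alternatives, and it failed without day 7, without day 14 and without the block. Its log2 fold change without those was 0.71, 1.04 and 1.14.

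The next loci missed the threshold in edgeR. The Jun locus from 94820251 had a log2 fold change of -0.53 (SE 0.19, adjusted p = 0.0716), with sham higher on 3 of 3 days, and the Jun locus from 94747751 had 0.51 (SE 0.19, adjusted p = 0.084). The Junb locus from 87508251 had 0.52 (SE 0.21, adjusted p = 0.114) and the Fos locus from 86795251 had 0.35 (SE 0.19, adjusted p = 0.236), each with day 4 opposite to the later days. Without day 4 the last pair passed as higher in the border zone, at 0.86 and 0.59, and the Jun locus from 94820251 passed as higher in sham, at -0.53. The called day 14 region of that Junb locus, with 75 sham tags against a minimum of 150, was listed only through the border zone. The listing thus partly fixed the direction of the Junb locus. For the other 6 loci the log2 fold changes lay between -0.22 and 0.20. A p that misses the threshold does not show that a locus was equal. The spread behind these p-values is that of the 6 libraries, which may be technical. The block takes up differences in level between days. What is left takes in how the border zone to sham ratio varied over the days.

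The 8 loci listed only on days 7 and 14 could not enter that test. The same edgeR model was therefore run on days 7 and 14, over the 26037 loci listed on both, a choice made after seeing the data. There 19.1% of all loci were higher in the border zone and 16.1% in sham, against 7.82% and 3.21% in DESeq2. Of 19 member loci, 6 passed as higher in the border zone and 2 in sham. Several entered the test through the border zone library alone, as given with each below, so these counts describe the listed loci and support nothing further. The 2 tests share the libraries of days 7 and 14, so their calls are not separate evidence.

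The Jun locus from 94771751 to 94773250 had a log2 fold change of 1.04 (SE 0.21, edgeR adjusted p = 9.62e-06), and both libraries were above the tag minimum on both days. The Junb locus from 87504251 to 87507250 had the largest log2 fold change of the 19, at 1.29 (SE 0.23, edgeR adjusted p = 8.2e-07). Its day 14 region, with 84 sham tags against a minimum of 150, was listed only through the border zone. Both loci rose in edgeR and in DESeq2, where the adjusted p-values were 0.00664 for Jun and 0.0014 for Junb. In edgeR the Junb locus from 87508251 also rose, by 0.70 (SE 0.19, adjusted p = 0.00139), with its called day 14 region listed only through the border zone. The Fos locus from 86838251 rose by 0.80 (SE 0.28, adjusted p = 0.015), and its day 7 region, with 35 sham tags against a minimum of 50, was listed in that way too. The Fosl2 locus from 32494251 had 1.08 (SE 0.30, edgeR adjusted p = 0.00174) and the Atf3 locus from 193053751 had 1.06 (SE 0.27, edgeR adjusted p = 0.000626). Sham tags of these last loci were under the minimum on both days, so the listing fixed their direction. The loci that fell in edgeR were the Jun locus from 94820251, at -0.69 (SE 0.21, adjusted p = 0.00636), and the strongest Fosl2 locus, from 32456751, at -0.48 (SE 0.20, adjusted p = 0.0452). DESeq2 called none of the 6 loci other than Jun from 94771751 and Junb from 87504251, with adjusted p-values of 0.0508 for Junb, 0.0604 for Atf3, 0.0753 for the first Fosl2 locus, 0.112 for the Jun locus that fell, 0.206 for Fos and 0.231 for the strongest Fosl2 locus. With 2 libraries a condition these calls depend on how a tool estimates the spread.

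**Figure D4:**
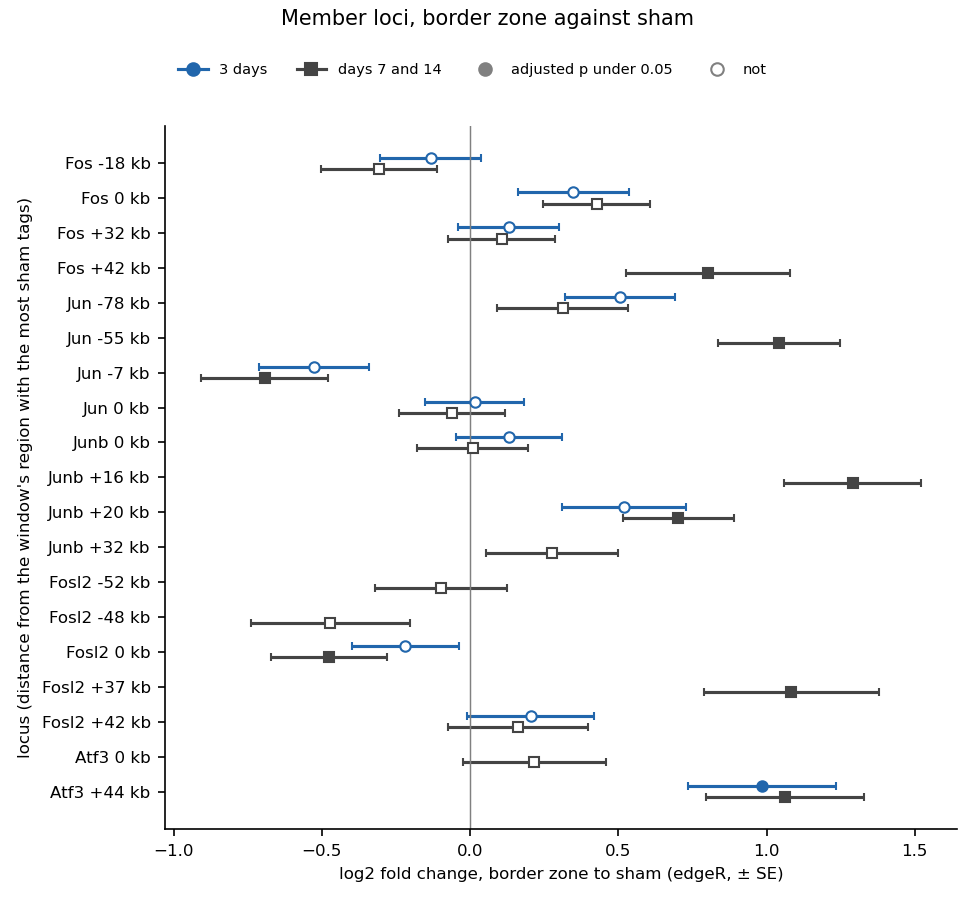
Points are edgeR log2 fold changes of border zone over sham for the member loci, with SE as bars; circles are the test over 3 days, squares the test on days 7 and 14, and filled symbols passed the adjusted threshold of 0.05. Labels give the gene and the distance of the locus from the window's region with the most sham tags on day 14, and the Junb locus at 1.29 stands furthest right among those tested on days 7 and 14.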

How the data were processed

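ATAC-seq tags of 6 libraries were read from 9 deposited lists in mm9, and the 30 RNA-seq samples were not analysed here. The aligner was Bowtie2 on day 4 and BWA later, with bedtools throughout, per the submitters' processing notes. Not given in the sources used here are the region caller, thresholds, versions, duplicate handling and any shift of reads for the transposase. Per the file headers, sham tags are deposited counts. Border zone tags are a deposited signal that the authors scaled to sham, except for counts in the day 4 list without a difference. Read from the values, 97.7% of the 85106 scaled values were a whole number times 1 factor of the day (1.03, 1.10 or 1 on day 4, 1.35 or 1.17 on day 7, 1.37 or 1.18 on day 14), within a relative tolerance of 0.001%. Of the members, 63 gave whole tags in this way and 4 were sums over 2 factors. Tags carried no molecular identifier, so 2 tags need not be 2 molecules. Library depth beyond the listed regions is unknown.

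A locus joins regions of different days that overlap, by 1 bp or more. The test used edgeR 4.0.16 (R 4.3.3) with TMM on a model of day and condition, checked on simulated data, and DESeq2 1.42.0 as an alternative. Libraries were paired by the day in their labels. That day is the replicate block. The deviations of sham and border zone from their condition's mean correlated across the 19733 loci at r of 0.885, 0.821 and 0.802 on days 4, 7 and 14. Loci are not independent replicates. The SE is the absolute log2 fold change divided by the root of F from that test. Named were all 5 genes, the region with most sham tags per gene and day, the called regions and each locus past the test. The other loci with values were added after their values were seen. Members and lists were chosen with earlier results of these data known. The other settings were scaling, fold, window, leaving out a day, leaving out the region with the most tags and a minimum of 10 tags. Coordinates are mm9, counted from 1. Neighbouring genes and promoters are from RefSeq GRCm38, used for names, sequences and distances between genes only. The planned list of other AP-1 and ATF genes and the marker check need an annotation of mm9 and were not analysed here. Columns of 0 unmapped samples were present.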

Additional observations from a re-analysis of the deposited data

Results flagged for a closer look

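At 2 loci the ratio of border zone to sham tags lay on opposite sides of 1 on different days, with counting intervals that left out 1 on each of them. The difference between days was not tested, since a condition had 1 library on a day. At the Fos locus from 86795251 to 86797250 the log2 ratio was 0.84 higher on day 7 than on day 4 and 0.42 higher on day 14 than on day 4. At the Junb locus from 87508251 to 87510750 it was 1.20 higher on day 7 than on day 4 and 0.83 higher on day 14 than on day 4. Sham was the higher library at both loci on day 4. The day 4 border zone values there are counts that were not scaled to sham. With a day 4 factor of 1.08, from summed listed tags, the upper end of the Junb interval, 0.939, would pass 1. That of Fos, 0.917, would stay under it. The Junb values cover different stretches, since the part before 87509251 was not listed on day 4. Over the regions from 87509251 (days 4 and 14) and 87509751 (day 7) to 87510750 the log2 ratios were -0.41 on day 4, 0.55 on day 7 and 0.28 on day 14. Nuclei isolation, genotype, aligner and the scaling of the list differ between day 4 and the later days and cannot be told apart from the day.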

How the results depend on the processing

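With 1 library per condition and day, intervals cover counting error only, and low-tag regions could be listed through 1 library alone. Without the region with the most tags, the summed ratio turned to 0.951 for Fos and 1.01 for Fosl2 on day 7. It moved to 0.988 for Fos on day 14, to 0.954, 1.19 and 1.20 for Jun on days 4, 7 and 14, to 1.76 and 1.27 for Junb on days 7 and 14, and to 1.20, 1.60 and 1.71 for Atf3 on days 4, 7 and 14. The median of the regions' own ratios was 1.25 for Fos and 1.34 for Jun on day 14, 0.754 for Jun on day 4 and 1.04 for Atf3 on day 7. Fosl2 on day 14, at 0.966 with an interval that spans 1, was 1.02 without its strongest region and 1.008 with a median factor, and Jun on day 7, at 0.973, was 1.016 with a factor from summed listed tags. A factor from summed listed tags gave 0.913 for Fos, 0.9335 for Jun, 0.959 for Junb and 0.946 for Fosl2 on day 4, and 0 sham-higher member regions that day. A fold of 2 left 1 border zone-higher and 0 sham-higher member regions on day 4, 0 sham-higher on day 7 and 3 border zone-higher on day 14. Midpoints in the central part of the windows left 0 border zone-higher on day 4 and 1 sham-higher on day 7. In each case the cause was not tested beyond the change itself.

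In edgeR over 3 days without the replicate block, 0 member loci were higher in the border zone, as were 0 of all loci in any direction, while 584 of all loci had an unadjusted p under 0.05. Leaving out a day gave 0 to 3 member loci higher in the border zone (3 without day 4, 0 without day 7, 0 without day 14) and 0 to 1 higher in sham (1 without day 4). Over all loci, the 1514 border zone-higher and 458 sham-higher calls became 3092 and 2145 without day 4, 955 and 129 without day 7, 553 and 21 without day 14, 1022 and 115 in DESeq2. On days 7 and 14, DESeq2 called 2036 and 836 of all loci where edgeR called 4985 and 4191. Among member loci DESeq2 called 2 higher in the border zone and 0 in sham. Its unadjusted p was under 0.05 for 5 and 1 of them, beside 6944 of all 26037 loci with the 2 directions together. Without TMM the sign turned at the Jun locus from 94825251, to -0.043, and at the Junb locus from 87489251 on days 7 and 14, to -0.029. Leaving out a day gave log2 fold changes of -0.043 to 0.101 at that Jun locus, -0.022 to 0.294 at that Junb locus and 0.00 to 0.36 at the Fosl2 locus from 32499751. No other member locus changed direction under the alternatives run.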
